A study of Mus musculus with 16 samples.

Results

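The LLC cachexia model was followed in the gastrocnemius of mice labelled C57BL/6, by comparing the 2 CAC libraries of this label with its 2 NOR libraries. These 4 of the 16 libraries in the series were chosen by their labels, and they are the LLC-bearing and the tumor-free PBS libraries of that strain. The series also holds AM and KD libraries, and the same 4 groups in mice labelled BALB/c with CT26 colon tumors. The C57BL/6 mice were male and 6 to 8 weeks old when purchased. CAC mice carried a subcutaneous Lewis lung carcinoma (LLC), a tumor line that grows in C57BL/6 hosts, and NOR mice were given PBS instead of tumor cells on day 0. Both received an intraperitoneal injection of PBS every day from day 9, and the gastrocnemius, a calf muscle made mostly of fast fibers, was taken on day 30. Beside them stand 2 AM libraries, from LLC-bearing mice given amiloride at 2 mg/kg in place of PBS, and 2 KD libraries, from mice bearing LLC cells in which Rab27a and Rab27b were knocked down by shRNA, with PBS. Nothing in the labels ties a replicate number to a litter or a day.

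Cancer cachexia is a loss of muscle that feeding does not restore. Wasting fibers degrade contractile protein through the ubiquitin-proteasome system, in which the muscle ligases MAFbx (Fbxo32) and MuRF1 (Trim63) mark proteins for the proteasome, and both ligase genes are known targets of FoxO factors. Glucocorticoids, cytokines of the IL-6 family, and low insulin signaling are known to act on this program.

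Expression is given as CPM, counts scaled to library size with TMM factors over the 16 libraries, and log2 fold changes come from an edgeR quasi-likelihood fit on the 4 libraries, given as CAC minus NOR, unless CT26 is named. DEGs were genes whose FDR (Benjamini-Hochberg) did not exceed 0.05 and whose level changed by a factor of 1.5 or more either way. With 2 libraries against 2, an exact two-sided permutation test of a single gene cannot give a p below 0.333, so each FDR here rests on the spread shared across all genes. Total counts were 35913190 to 59168387 over the 8 libraries labelled C57BL/6.

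Some libraries did not behave as their labels say. Over all 16 libraries, 103 genes split the libraries into separate sets by a gap of more than 2 on the log2(CPM + 0.1) scale, and for 0 of them the sets were the strain labels. Instead, 22 genes set CAC-4, AM-1, AM-3, and KD-1 apart from the other 12 libraries. One of them was Ifi202b, an interferon-inducible gene whose expression differs between inbred strains, with 2.88, 2.70, 3.52, and 6.03 CPM in those 4 libraries and at most 0.0725 CPM in the rest. Of the 22 genes, 11 were higher in those 4 libraries and the others were lower, such as the ribosomal protein gene Rps2. Rps2 was at 48.8, 54.4, 99.1, and 29.2 CPM in the 4 and at 760 or more in the rest. Another 28 genes, with the B cell gene Cd22 among them, were lower in NOR-1, CAC-1, CAC-4, KD-2, and KD-3 than elsewhere. The 4 libraries compared here stood on the same side of the first split, and the second put NOR-1 with CAC-1 and NOR-2 with CAC-2. AM-1 and KD-1 differed from the other C57BL/6-labelled libraries on the first split, so their values are given separately throughout. These patterns were noticed after the data were seen, and their part in the results was not tested.

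In CAC relative to NOR, 125 of 14604 genes tested were upregulated DEGs (0.856%) and 122 were downregulated DEGs (0.835%). An unadjusted p below 0.05 was reached by 22.7% of genes tested, 1832 with a rise and 1478 with a fall. The smallest FDR was 0.00736, that of Mt2. Both CAC libraries were above both NOR libraries for 27.1% of all genes tested, and below them for 26.6%. The shares in this paragraph, for DEGs, for an unadjusted p below 0.05, and for libraries without overlap, are the background for each count of list members. Leaving out any of the 4 libraries left 0 DEGs, with a smallest FDR of 0.0686 to 0.172 by edgeR and 1548 to 3371 genes at an unadjusted p below 0.05. In a fit on all 8 C57BL/6-labelled libraries, edgeR also called 0 DEGs, with 1715 genes at an unadjusted p below 0.05, while DESeq2 on the 4 libraries called 672 up and 834 down.

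Fbxo32, the gene of the ligase MAFbx, was the only DEG among 15 atrophy ubiquitin ligases tested. Its level was 217 CPM in NOR-1 and 165 in NOR-2, against 1130 in CAC-1 and 761 in CAC-2. The CAC libraries lay well above the NOR libraries, and the log2 fold change was 2.34 (SE 0.261, edgeR FDR 0.043). Trim63, the gene of MuRF1, stood at 519 and 323 CPM in NOR and at 2775 and 1697 in CAC, a similar separation, but its log2 fold change of 2.44 had an FDR of 0.0609 and missed the limit, although it was a DEG in 3 of 14 other settings. Per transcript length, Trim63 was the more abundant of the pair in NOR, with the authors' FPKM averaging 207 against 25.5 for Fbxo32. Of the 15 ligases, 6 were higher in both CAC libraries (27.1% of all genes were) and 4 lower (26.6%), with a median log2 fold change of 0.186 beside 0.0182 over all genes tested. Across the other settings and left-out libraries this median ran from 0.0177 to 0.34.

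All 33 proteasome subunits tested were higher in both CAC libraries than in both NOR libraries, where 27.1% of all genes were. Their log2 fold changes were narrowly spread, from 0.289 to 1.24 with a median of 0.676, and 4 passed as DEGs. Psmd4, the ubiquitin receptor of the regulatory particle, was at 163 and 144 CPM in NOR and at 365 and 343 in CAC (log2 fold change 1.24, edgeR FDR 0.0374). Psmd8, another regulatory subunit, had a log2 fold change of 0.98, and Psma5 and Psma7, subunits of the outer rings of the core particle, had 0.84 and 1.01. In autophagy and lysosome, 1 of 33 genes was a DEG, 18 were higher in both CAC libraries, and 2 were lower. That DEG was Bnip3, a mitophagy receptor, with 175 and 159 CPM in NOR and 401 and 331 in CAC (log2 fold change 1.17).

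**Figure D1:**
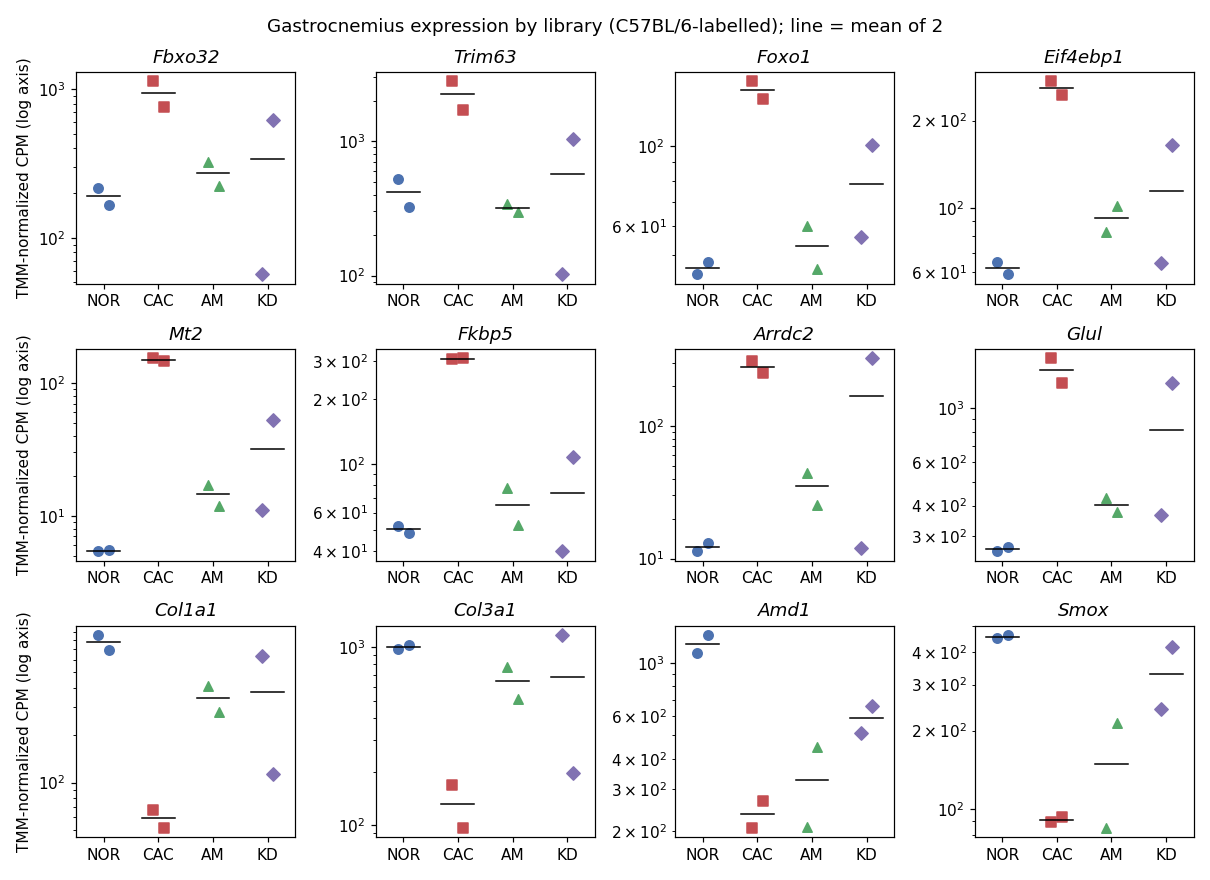
TMM-normalized CPM on log axes for 12 genes in the C57BL/6-labelled NOR, CAC, AM, and KD libraries, each symbol 1 library and each line the mean of 2. The CAC symbols lie apart from the NOR symbols for every gene shown, above them for Fbxo32 to Glul and below them for Col1a1 to Smox, while the KD libraries are far apart for most.

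Genes of the insulin, mTOR, and FoxO pathway moved both ways. Foxo1, a transcription factor held out of the nucleus by insulin signaling, was at 44.1 and 47.8 CPM in NOR and at 151 and 135 in CAC (log2 fold change 1.67, edgeR FDR 0.0291). Its relative Foxo3 had a log2 fold change of 1.15, and Foxo6 one of -3.04, from 14 and 11.2 CPM in NOR to 1.3 and 1.67 in CAC. The 3 Foxo genes each separated the groups, Foxo6 in the other direction from Foxo1 and Foxo3. Eif4ebp1, which encodes the translation repressor 4E-BP1, was at 65.2 and 59.2 CPM in NOR and 272 and 244 in CAC, with a log2 fold change of 2.09 (edgeR FDR 0.0205). Pik3r1, the regulatory subunit of PI3-kinase, and Sesn1, an inhibitor of mTORC1 induced by stress, had log2 fold changes of 2.06 and 1.60. Igfbp5, an IGF-binding protein secreted by muscle, was the other downregulated member, with 1156 and 979 CPM in NOR and 219 and 316 in CAC (log2 fold change -1.96). In all, 5 of the 28 members tested were upregulated and 2 downregulated. Ddit4, which also restrains mTORC1, and Irs1, the insulin receptor substrate, had log2 fold changes of 3.48 and -1.71 without passing (edgeR FDR 0.0679 and 0.0515), and were DEGs in 2 and 7 of 14 other settings.

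Among 21 tested genes known to respond to glucocorticoids, 9 were upregulated DEGs and 0 were downregulated, where 0.856% and 0.835% of all genes were, and 17 were higher in both CAC libraries while 0 were lower, against 27.1% and 26.6% of all genes. Their median log2 fold change was 1.52. Fkbp5, a co-chaperone of the glucocorticoid receptor, was at 52.0 and 48.5 CPM in NOR and at 305 and 308 in CAC, with a log2 fold change of 2.64 (SE 0.113, edgeR FDR 0.0194). Tsc22d3, which encodes the protein GILZ, rose from 171 and 156 CPM to 688 and 591. Cebpd, a C/EBP transcription factor, went from 38.7 and 31.6 CPM to 460 and 239, with log2 fold changes of 2.00 for Tsc22d3 and 3.35 for Cebpd. The CAC and NOR libraries did not overlap for any of them. Glul, which encodes glutamine synthetase, had the greatest rise in mean CPM of all DEGs, from 261 and 272 to 1595 and 1271 (log2 fold change 2.46). The receptor gene itself, Nr3c1, was at 110 and 108 CPM in NOR and 117 and 111 in CAC (log2 fold change 0.10, edgeR FDR 0.648).

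The metallothioneins Mt1 and Mt2, which bind zinc and copper and respond to both metals and glucocorticoids, were among the clearest differences. Mt2 was at 5.42 and 5.46 CPM in NOR and at 154 and 147 in CAC, 27.6 times as high on average (log2 fold change 4.82, SE 0.113). Mt1 was at 17.5 and 18.8 CPM in NOR and at 190 and 168 in CAC (log2 fold change 3.34, edgeR FDR 0.0194). The replicates of each group nearly coincided for both. They were the only DEGs among 13 metallothionein and zinc transporter genes tested, and Slc39a14, the zinc importer ZIP14, had a log2 fold change of 1.43 with an FDR of 0.0726.

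Other DEGs with the largest rises lay outside the lists. Arrdc2, an alpha-arrestin, was at 11.4 and 13.0 CPM in NOR and at 307 and 249 in CAC (log2 fold change 4.54). Slc10a6, a transporter of sulfated steroids, had a log2 fold change of 4.16, Hif3a, a member of the hypoxia-inducible factor family, 4.01, and Fam107a, a stress-inducible actin-binding protein, 3.75. Doc2b, a calcium sensor in vesicle fusion, went from 0.770 and 0.680 CPM to 21.9 and 18.5, and Chrna9, a nicotinic receptor subunit, from 0.159 and 0.166 to 2.33 and 1.98. Absence of overlap was part of how these genes were chosen. Fmo2, a flavin monooxygenase, and Tgm2, a transglutaminase, were among the DEGs with the greatest rise in CPM, at log2 fold changes of 2.71 and 1.16.

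Promoter windows, the 250 bases before each RefSeq transcript start in GRCm38.p6, were searched for letters that glucocorticoid receptor sites often hold. The letters were GNACA, then 3 bases of any kind, then TGTNC, looked for on both strands. They occurred in 4 of the 105 upregulated DEGs with a window (3.81%), in 1 of the 81 downregulated DEGs (1.23%, Pdzd7), and in 0.44% of all 27025 genes with a window. The 4 genes were Mt1, Fam107a, Slc10a6, and Map3k6, and the window of Trim63, which missed the DEG limit, held the letters too. The FoxO letters GTAAACA, again on both strands, occurred in 4.76% of the upregulated DEGs, 2.47% of the downregulated, and 3.54% of all genes, and the Trim63 window held them as TGTTTAC next to the glucocorticoid letters. The C/EBP letters TTGCNNAA were in 11.4%, 14.8%, and 10.8%, and the STAT letters TTCNNNGAA in 8.57%, 3.70%, and 8.13%. A match of letters is not a site of binding. Of the listed glucocorticoid response genes with a window, 2 of 18 held the glucocorticoid letters (11.1%). The windows below, each 5′ to 3′ on the gene's strand with matching letters in capitals, are shown because they hold those letters. They are thus not typical of the genes that rose. They are Mt1 at chr8:94178839-94179088 on the plus strand, Trim63 at chr4:134314870-134315119 on the plus strand, Fam107a at chr14:8309780-8310029 on the minus strand, Slc10a6 at chr5:103629404-103629653 on the minus strand, and Map3k6 at chr4:133240568-133240817 on the plus strand.
Mt1: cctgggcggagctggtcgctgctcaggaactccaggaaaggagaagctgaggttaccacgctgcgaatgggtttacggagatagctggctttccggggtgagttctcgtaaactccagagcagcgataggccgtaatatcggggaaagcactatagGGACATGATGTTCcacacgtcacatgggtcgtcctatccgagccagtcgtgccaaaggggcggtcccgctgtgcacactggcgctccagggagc
Trim63: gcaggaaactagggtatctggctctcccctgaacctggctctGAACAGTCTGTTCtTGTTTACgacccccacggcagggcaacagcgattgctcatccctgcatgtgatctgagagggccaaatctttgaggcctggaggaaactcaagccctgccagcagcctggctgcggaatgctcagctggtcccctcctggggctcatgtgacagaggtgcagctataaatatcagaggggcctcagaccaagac
Fam107a: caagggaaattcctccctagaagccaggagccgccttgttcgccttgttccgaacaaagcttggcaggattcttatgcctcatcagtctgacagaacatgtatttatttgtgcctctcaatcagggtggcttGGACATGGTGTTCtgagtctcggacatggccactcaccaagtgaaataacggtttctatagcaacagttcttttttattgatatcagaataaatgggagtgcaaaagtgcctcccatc
Slc10a6: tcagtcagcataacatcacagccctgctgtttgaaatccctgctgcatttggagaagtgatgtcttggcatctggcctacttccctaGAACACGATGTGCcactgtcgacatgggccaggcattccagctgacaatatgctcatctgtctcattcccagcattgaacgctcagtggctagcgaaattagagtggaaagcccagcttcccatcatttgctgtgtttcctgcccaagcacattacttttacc
Map3k6: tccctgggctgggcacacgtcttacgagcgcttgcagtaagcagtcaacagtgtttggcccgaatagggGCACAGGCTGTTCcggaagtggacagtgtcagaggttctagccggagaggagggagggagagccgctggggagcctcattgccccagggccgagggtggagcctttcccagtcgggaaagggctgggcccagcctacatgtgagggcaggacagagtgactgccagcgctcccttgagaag
In the Mt1 window the letters start 94 bases before the transcript start, and in Trim63 the glucocorticoid letters start 208 and the FoxO letters 194 bases before it. Map3k6, a stress-activated kinase, was at 8.26 and 11.3 CPM in NOR and at 82.9 and 66.7 in CAC.

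Of 25 IL-6 family and STAT3 genes tested, 3 were upregulated DEGs (0.856% of all genes were), 11 were higher in both CAC libraries (27.1%), and 5 were lower (26.6%). Osmr, the oncostatin M receptor, was at 20.1 and 24.3 CPM in NOR and at 83.5 and 60.7 in CAC (log2 fold change 1.73, edgeR FDR 0.0474). Lrg1, an acute-phase glycoprotein, and Lcn2, lipocalin-2, had log2 fold changes of 2.19 and 4.58. Il6ra, the IL-6 receptor, did not pass, although its 9.16 and 15.4 CPM in NOR and 50.1 and 64.2 in CAC did not overlap (edgeR FDR 0.0573, and a DEG in 5 of 14 other settings). Stat3 and its feedback target Socs3 had log2 fold changes of 0.61 and -0.37, neither a DEG, and that of Socs3 was 1.04 without NOR-2. In the p53 and growth arrest list, 3 of 18 were upregulated and 0 downregulated (0.856% and 0.835% of all genes were), namely Gadd45a, Sesn1, and the death receptor Fas. Gadd45a, a growth arrest gene known from denervated muscle, was at 24.4 and 21.7 CPM in NOR and at 77.4 and 55.6 in CAC (log2 fold change 1.56). It was also the single DEG of 20 denervation and neuromuscular junction genes. Cdkn1a, the cell cycle inhibitor p21, had a log2 fold change of 1.92 and an FDR of 0.0538. Acvr1b, a type I activin receptor that carries myostatin signals, was the single DEG of 23 myostatin, activin, and TGF-beta genes (log2 fold change 1.28), and Nfkbia, the NF-kappaB inhibitor, that of 28 NF-kappaB and cytokine genes (1.06). No interferon response gene of 25 was a DEG, and 3 of them had an unadjusted p below 0.05.

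**Figure D2:**
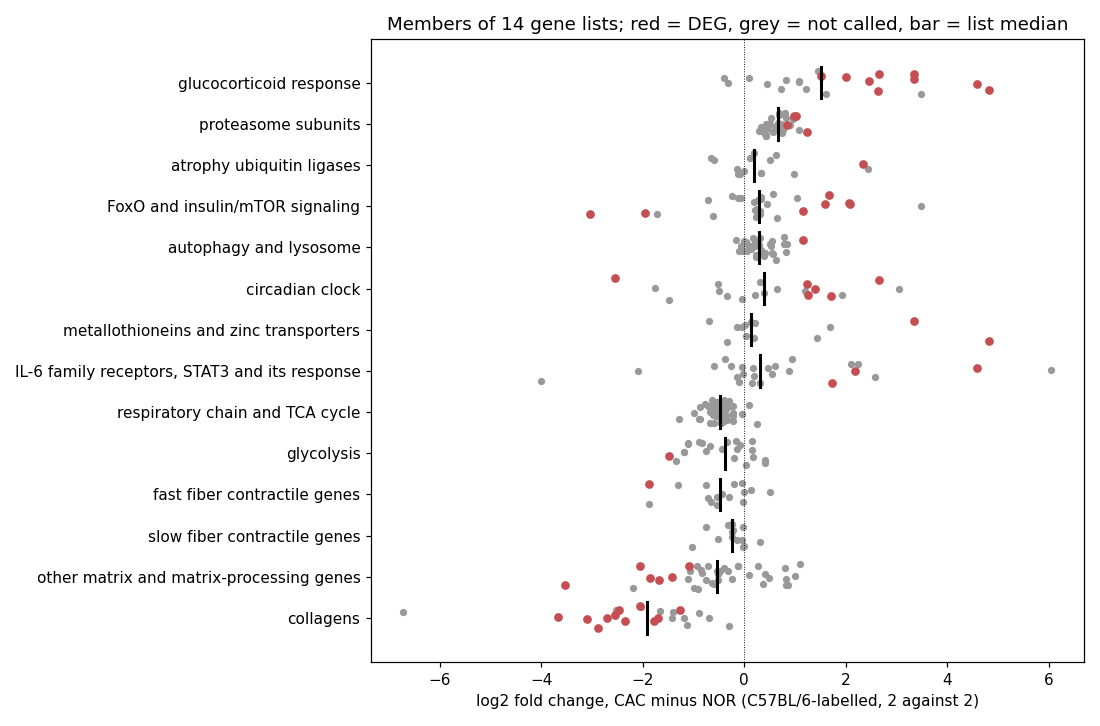
Log2 fold change (CAC minus NOR, 2 libraries against 2) of every tested member of 14 gene lists, 1 point per gene, red where the gene was a DEG, with a black bar at the list median. Glucocorticoid response genes lie mostly above 0 with a median of 1.52, and proteasome subunits form a tight set above 0. Respiratory chain genes lie mostly below 0, from -1.28 to 0.259, with no DEG. Collagens lie below 0 with a median of -1.91.

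Collagens made up the largest group of downregulated genes on these lists. Of 22 listed chains tested, 11 were downregulated DEGs, and 21 were lower in both CAC libraries than in both NOR libraries, where 26.6% of all genes were. Col1a1, a chain of type I collagen that lies on chr11:94936224-94953042 (plus strand, GRCm38), was at 860 and 690 CPM in NOR and at 67.0 and 51.6 in CAC. The NOR level was on average 13.1 times the CAC level (log2 fold change -3.67, SE 0.211, edgeR FDR 0.0205). Col1a2, its partner chain, went from 1082 and 875 CPM to 115 and 107, and Col3a1, the chain of type III collagen, from 977 and 1022 to 168 and 96.9. Log2 fold changes were -3.10 for Col1a2 and -2.89 for Col3a1. The other DEGs were 3 chains of type V collagen (Col5a1, Col5a2, and Col5a3), 3 of type VI (Col6a1, Col6a2, and Col6a3), and Col12a1 and Col14a1, which bind to fibrils, with log2 fold changes from -2.71 for Col6a2 to -1.26 for Col14a1. The basement membrane chains Col4a1 and Col4a2 had log2 fold changes of -1.19 and -0.89 without passing, and Col8a1 was the listed chain whose groups overlapped. The list does not hold every collagen gene, and 3 chains outside it were also downregulated DEGs, named here after their values were seen. They were Col4a5, another basement membrane chain, at 11.7 and 12.4 CPM in NOR and 3.22 and 2.44 in CAC (log2 fold change -2.06), Col6a6 (-2.57), and Col11a2 (-2.32).

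Among 38 other matrix and matrix-processing genes, 6 were downregulated DEGs and 0 were upregulated (0.835% and 0.856% of all genes were). The list did not move one way, since 24 were lower in both CAC libraries and 9 were higher, 6 of these 9 with an unadjusted p below 0.05. Tnmd, tenomodulin, a marker of tendon cells, was at 36.9 and 24.4 CPM in NOR and at 2.65 and 2.50 in CAC (log2 fold change -3.53). The collagen cross-linking enzymes Loxl1 and Loxl2 had log2 fold changes of -1.09 and -2.06, the procollagen peptidase Adamts2 -1.43, fibrillin-1 (Fbn1) -1.86, and the proteoglycan fibromodulin (Fmod) -1.67. Decorin (Dcn) and biglycan (Bgn), also small proteoglycans, had log2 fold changes of -0.13 and -0.24, and neither was a DEG. Outside that list, the cornea and tendon proteoglycan keratocan (Kera) was at 32.9 and 17.2 CPM in NOR and at 1.32 and 1.73 in CAC, the largest fall among DEGs with a mean of at least 1 CPM (log2 fold change -3.99). Cilp2, a cartilage matrix protein, and Papln, a matrix protein of the papilin family, had log2 fold changes of -3.55 and -3.01. Each of these matrix DEGs had both CAC libraries below both NOR libraries. For Tnmd, Kera, Cilp2, and Papln, absence of overlap was part of the rule that picked the largest falls.

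**Figure D3:**
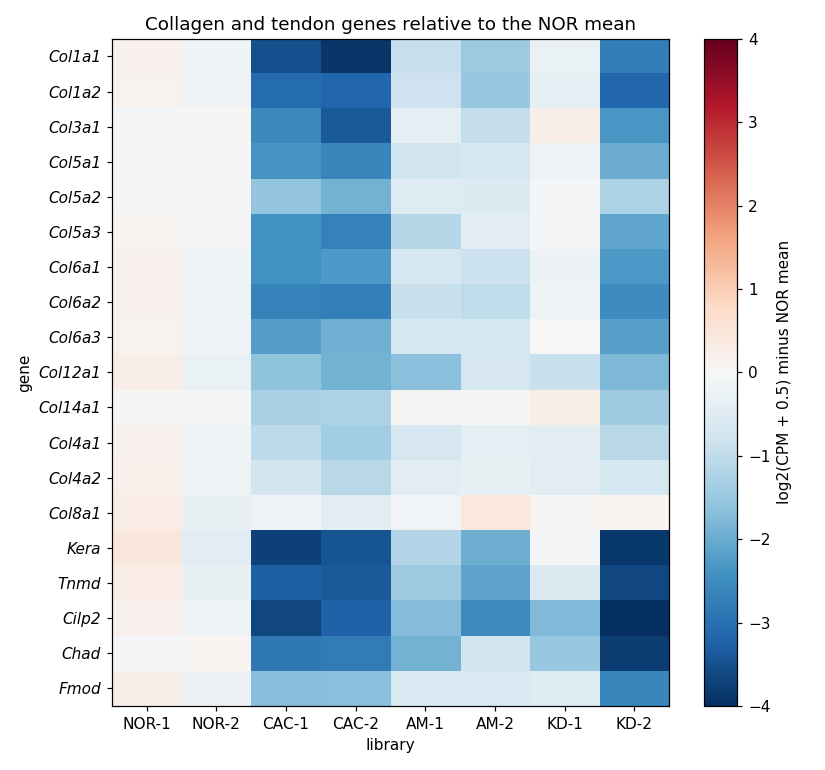
Heat map of 19 collagen and tendon genes in the 8 C57BL/6-labelled libraries, colored by log2(CPM + 0.5) minus the mean of the 2 NOR libraries. CAC-1, CAC-2, and KD-2 are deep blue in most rows, AM-1 and AM-2 are paler, and KD-1 is near the NOR libraries for type I, III, V, and VI chains.

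Markers of cells other than fibers moved with these groups. In tendon and cartilage, 4 of 8 markers were downregulated DEGs and 7 were lower in both CAC libraries, and their summed level was 793 to 1110 CPM in NOR and 376 to 420 in CAC. In fibroblasts, 3 of 8 markers were downregulated, with sums of 4984 to 5076 CPM in NOR and 3178 to 3219 in CAC. Both lists share members with the collagen and matrix lists above, Col1a1 and Dcn in fibroblasts and Tnmd, Fmod, Comp, and Thbs4 in tendon and cartilage, and Cilp2 of the latter was also named above. Without the shared members, 4 of 6 fibroblast markers were lower in both CAC libraries and 1 was higher, with sums of 3179 to 3387 CPM in NOR and 2238 to 2299 in CAC. For tendon and cartilage 3 of the remaining 4 were lower, with sums of 107 to 123 CPM in NOR and 23.5 to 24.8 in CAC. No marker of either list was at 0 in any of the 4 libraries. Their part in the collagen result was not tested, and in whole muscle fewer cells of a type and less RNA per cell cannot be told apart. Neutrophil markers went the other way, with all 7 tested markers higher in both CAC libraries and sums of 6.62 to 11.1 CPM in NOR and 112 to 152 in CAC. S100a8 and S100a9, the calprotectin subunits, and Ltf, lactoferrin, were DEGs (log2 fold changes 4.59, 4.54, and 3.60), and Chil3, a chitinase-like protein of myeloid cells, had a log2 fold change of 5.77, from 0.239 and 0.299 CPM in NOR to 16.6 and 12.7 in CAC. Lcn2, named above, is also a neutrophil granule gene. All 8 erythroid markers were higher in both CAC libraries, with sums of 1031 to 1368 CPM in NOR and 4786 to 8692 in CAC, and Alas2, the heme synthesis enzyme of red cells, and Slc4a1, the band 3 anion exchanger, were DEGs. Macrophage markers had 0 DEGs among 8 by edgeR, 1 at an unadjusted p below 0.05, and sums of 123 to 239 CPM in NOR and 249 to 287 in CAC. B cell markers summed to 3.51 and 292 CPM in NOR-1 and NOR-2 and to 1.3 and 144 CPM in CAC-1 and CAC-2, so they overlapped between the groups. Markers of proliferating cells were lower in both CAC libraries for 7 of 8, with 0 DEGs by edgeR and 2 at an unadjusted p below 0.05, and summed to 14.3 and 28.2 CPM in NOR and 5.77 and 10.2 in CAC. Smooth muscle and pericyte markers summed to 4033 to 5249 CPM in NOR and 6861 to 8036 in CAC, although 2 of the 8 were higher, 2 were lower, and 0 were DEGs by edgeR, with 2 at an unadjusted p below 0.05. Endothelial markers went both ways, with 3 of 8 higher in both CAC libraries, 2 lower, and a median log2 fold change of 0.078, and summed to 1375 to 1716 CPM in NOR and 1623 to 2075 in CAC, which overlap. The DEG among them was Kdr, a VEGF receptor, with a log2 fold change of -1.50. Skeletal muscle fiber markers summed to 125500 to 180500 CPM in NOR and 114400 to 128000 in CAC, with no marker at 0.

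In polyamine metabolism, the DEGs were among the most abundant that fell. Amd1, the decarboxylase that supplies aminopropyl groups for spermidine and spermine, was at 1099 and 1302 CPM in NOR and at 207 and 266 in CAC (log2 fold change -2.31, edgeR FDR 0.0352). Smox, spermine oxidase, was at 452 and 463 CPM in NOR and at 89.3 and 93.3 in CAC (log2 fold change -2.29, SE 0.124). Amd2, a near copy of Amd1, had a log2 fold change of -2.29, and reads of these copies may have been split between them. Gamt, the last enzyme of creatine synthesis, had one of -1.93. The transporters Slc3a2 and Slc7a8, of large neutral amino acids, rose with log2 fold changes of 1.24 and 0.90, and with Glul they gave 3 upregulated and 4 downregulated DEGs of 41 genes of amino acid, polyamine, and one-carbon metabolism.

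Few genes of energy metabolism were DEGs. Of 62 respiratory chain and TCA cycle genes tested, 0 were DEGs by edgeR, 45 had an unadjusted p below 0.05 with a fall, and 56 were lower in both CAC libraries against 26.6% of all genes. Their median log2 fold change was -0.467. Cs, citrate synthase, was at 1022 and 773 CPM in NOR and at 575 and 573 in CAC (log2 fold change -0.61, edgeR FDR 0.147). Among 22 glycolysis identifiers, 12 were lower in both CAC libraries (26.6% of all genes were) and 2 higher (27.1%), with a median of -0.384 that ran from -0.61 to -0.222 across the other settings and left-out libraries. The DEG there was a minor identifier of Aldoa beside the aldolase A gene itself, whose own log2 fold change was 0.16, and reads may be split between the pair. Tpi1, triosephosphate isomerase, had a log2 fold change of -1.12 without passing (FDR 0.0641). In glycogen metabolism, Slc37a4, the glucose-6-phosphate transporter, was the DEG of 19, at 146 and 108 CPM in NOR and 32.8 and 36.1 in CAC (log2 fold change -1.84). Fatty acid genes had 0 DEGs of 37. At an unadjusted p below 0.05 there were 10, 6 with a rise and 4 with a fall, beside 22.7% of all genes. Ketone body genes had 0 DEGs of 7, with 2 at an unadjusted p below 0.05. Oxct1, the entry enzyme of ketone oxidation, was at 427 and 332 CPM in NOR and 156 and 160 in CAC (edgeR FDR 0.051), and was a DEG in 7 of 14 other settings.

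Few contractile genes were DEGs. The fast myosin Myh4, the most abundant myosin of this muscle, was at 49473 and 31999 CPM in NOR and 36045 and 28253 in CAC, and the groups overlapped. Of 16 fast fiber genes 1 was a DEG, Myoz3, a Z-disc protein of fast fibers (log2 fold change -1.88). Of these 16, 7 had an unadjusted p below 0.05 with a fall and 0 with a rise. In both CAC libraries 8 were lower and 1 was higher. Their median log2 fold change was -0.478, and ran from -0.657 to -0.157 across the other settings and left-out libraries. Of 15 slow fiber genes 0 were DEGs, with 2 at an unadjusted p below 0.05. Casq1, the calcium buffer of the sarcoplasmic reticulum, was at 4709 and 3140 CPM in NOR and 958 and 1124 in CAC, with an FDR of 0.0538, and was a DEG in 5 of 14 other settings. Actc1, cardiac actin, was at 1481 and 449 CPM in NOR and at 27.3 and 30.3 in CAC (log2 fold change -5.02, edgeR FDR 0.0531). These genes had large differences, but the spread between the NOR libraries was also large. Ky, a muscle protein of the Z-disc, and Kcng4, a potassium channel subunit, were downregulated outside the lists, with log2 fold changes of -2.11 and -3.04. Myf6, the muscle regulatory factor MRF4 of mature fibers, was upregulated with a log2 fold change of 1.34, from 117 and 109 CPM to 320 and 242, as the DEG of 20 myogenic and satellite cell genes.

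Clock genes held 5 upregulated DEGs and 1 downregulated among 19. Per1 was at 12.4 and 19.8 CPM in NOR and at 100 and 98.4 in CAC, and Per3 at 7.94 and 9.86 against 29.0 and 28.1, both repressors of the clock's core loop. Per1 is also known to respond to glucocorticoids. Npas2, a partner of the activator BMAL1, went the other way, from 10.0 and 7.85 CPM to 1.80 and 1.21 (log2 fold change -2.54, edgeR FDR 0.0487). The nuclear receptor Rora and the repressor Nfil3 were also upregulated, at log2 fold changes of 1.25 and 1.39. The time of day of tissue collection was not given in the sources used here.

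Among the remaining DEGs with the largest changes, Apln, the peptide ligand apelin, fell from 14.1 and 12.7 CPM to 1.51 and 1.16, and Mdga1 and Nrep had log2 fold changes of -3.10 and -3.03. Xntrpc had 0 counts in both NOR libraries and 165 and 164 counts in CAC, at least 45.2-fold higher against a floor of 3 counts per library, and Trpc2 had 67 and 117 counts in NOR and 0 in both CAC libraries, at least 26.0-fold lower. These genes overlap on the same strand of chromosome 7 (GRCm38, 102065713 to 102096864 for Xntrpc and 102083116 to 102096396 for Trpc2), so how reads were divided between them is uncertain.

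The AM and KD libraries were compared with CAC as well, and both comparisons use CAC-1 and CAC-2, which also chose the DEGs. By edgeR, AM relative to CAC had 0 DEGs, with 18.4% of 14683 genes at an unadjusted p below 0.05 and a smallest FDR of 0.0979. KD relative to CAC had 0 DEGs, with 2.58% of 14622 genes at an unadjusted p below 0.05 and a smallest FDR of 0.993. With each library left out in turn there were 0 DEGs in both comparisons, but the number of genes at an unadjusted p below 0.05 moved widely. In AM vs. CAC it was 855 without CAC-1, 1674 without CAC-2, 2265 without AM-1, and 3606 without AM-2, in place of 2699. In KD vs. CAC it was 63 without CAC-1, 101 without CAC-2, 1946 without KD-1, and 4418 without KD-2, in place of 377. Relative to the NOR mean, the median upregulated DEG stood at 1.56 and 1.36 on the log2 scale in CAC-1 and CAC-2, at 0.426 and 0.417 in AM-1 and AM-2, at 0.132 in KD-1, and at 1.19 in KD-2. For downregulated DEGs these medians were -1.68, -1.76, -0.829, -0.774, -0.277, and -1.43 in the same order. Both AM libraries therefore lay between NOR and CAC, and the KD libraries lay apart, KD-1 near NOR and KD-2 near CAC.

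**Figure D4:**
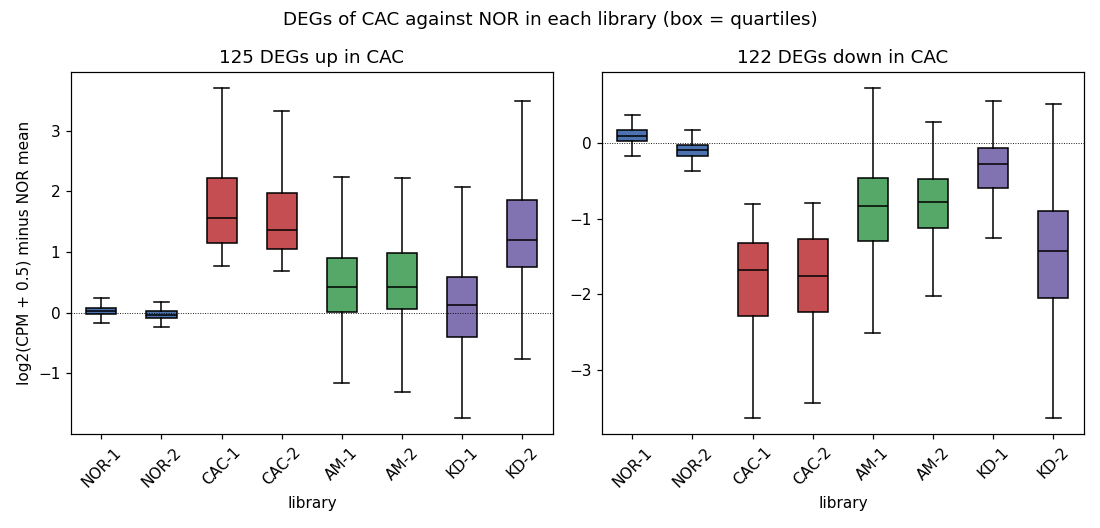
Box plots, 1 per C57BL/6-labelled library, of log2(CPM + 0.5) minus the NOR mean for the 125 upregulated and 122 downregulated DEGs of CAC vs. NOR (line at the median, box at the quartiles). The NOR and CAC boxes are set by the choice of the genes, the AM boxes sit between them, and KD-1 and KD-2 sit far apart.

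The same split between the KD libraries was seen gene by gene. Fbxo32 was at 323 and 224 CPM in AM, 56.9 in KD-1, and 623 in KD-2, and Trim63 at 340 and 295 in AM, 103 in KD-1, and 1031 in KD-2. Arrdc2 was at 44.4 and 25.4 CPM in AM, 12.1 in KD-1, and 323 in KD-2. Col1a1 was at 409 and 278 CPM in AM, 637 in KD-1, and 113 in KD-2. For all 4 genes KD-1 was close to or past the NOR levels and KD-2 was nearer the CAC levels on a log scale. Neutrophil genes did not follow this order, with S100a9 at 27.2 and 60.5 CPM in AM and 139 and 58.1 in KD, and Lcn2 at 24.2 and 17.0 in AM and 25.1 and 16.6 in KD, all far above NOR. Lrg1 was likewise at 177 and 175 CPM in AM and 106 and 189 in KD. KD-1 and AM-1 are among the 4 libraries that stood apart in the 22 genes, and KD-2 is among the 5 that were lower in the 28 genes. Marker sums differed between KD-1 and KD-2 in both directions. They were 4946 and 2060 CPM for fibroblasts, 743 and 276 for tendon and cartilage, and 389 and 0.604 for B cells. Smooth muscle and pericyte sums were 3362 and 9220 CPM. Liver marker sums did not follow that set. They were 1966 CPM in AM-1, of which albumin (Alb) made 1251, 355 in AM-2, 552 in KD-1, and 77.5 in KD-2, beside 46.3 to 140 CPM in the 4 NOR and CAC libraries, and 488 in NOR-4 and 196 in AM-3. The part of these differences in the AM and KD values was not tested.

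The libraries labelled BALB/c, from mice with CT26 tumors and their PBS controls, were not used to choose the DEGs. On their own, they gave 0 DEGs of CAC relative to NOR by edgeR. There, 17.1% of 15059 genes had an unadjusted p below 0.05, and the smallest FDR was 0.0526. The study's sources differ on whether the BALB/c mice were all male. Of the 125 upregulated DEGs, 113 (90.4%) were higher in CT26 CAC than in their NOR by mean log2 level, where 47.5% of all genes were. Of the 121 downregulated DEGs tested there, 116 (95.9%) were lower, where 52.5% of all genes were. Without CAC-4, which stood apart in the 22 genes, these numbers were 113 and 117. In both CT26 libraries on the same side, 95 of 125 upregulated DEGs lay above both NOR libraries (background 25.0%), and 106 of 121 downregulated DEGs lay below them (background 26.8%). Median log2 fold changes were 1.51 with LLC and 1.11 with CT26 for upregulated DEGs, and -1.76 and -1.52 for downregulated DEGs. Fbxo32 went from 93.8 and 142 CPM to 896 and 880 with CT26, and Col1a1 went from 516 and 589 to 38.3 and 59.8.

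The glucocorticoid response list had a median log2 fold change of 1.52 with LLC and 0.877 with CT26, a difference that was not tested for the list. Glul was at 337 and 1022 CPM in NOR-3 and NOR-4 and at 1136 and 1306 in CAC-3 and CAC-4. Outside that list, Arrdc2 was at 21.0 and 119 CPM against 178 and 147. In both genes NOR-4 lay nearer the CAC libraries than NOR-3 did. Per1 was at 60.4 and 92.4 CPM against 92.1 and 132, with a log2 fold change of 0.58 where LLC gave 2.65. The difference between the models was tested as an interaction, and 0 of 15235 genes passed an FDR of 0.05 (0%), with 742 genes at an unadjusted p below 0.05 and 129 genes past the limit by DESeq2. The genes with the smallest p, none of which passed by edgeR, were Xntrpc, Hspa1b, Smox, and Hspa1a with a positive difference (log2 fold change with LLC minus that with CT26) and Npas2, Itgav, Ppp1r27, and Gm43302 with a negative one. Smox had a log2 fold change of -2.29 with LLC and -3.97 with CT26, so its positive difference is not a larger change with LLC. Hspa1a, a heat shock protein, was at 2317 and 2067 CPM in NOR-3 and NOR-4, at 33.7 and 79.1 in the CT26 CAC libraries, and between 30.7 and 66.6 in the 4 libraries of the LLC comparison. NOR-3 and NOR-4 were thus the libraries that stood apart for Hspa1a and its near copy Hspa1b, which may share reads.

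**Figure D5:**
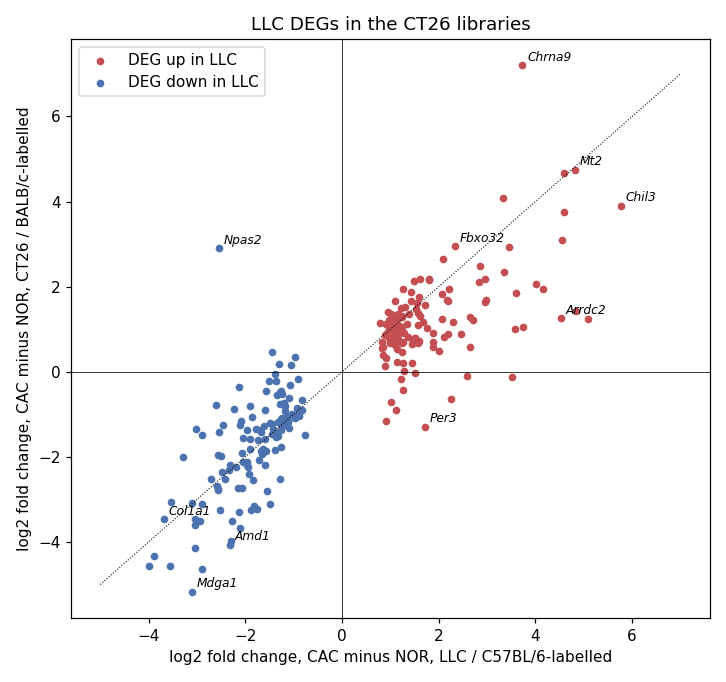
Log2 fold change (CAC minus NOR) in the LLC libraries on the x axis against that in the CT26 libraries on the y axis for 245 DEGs of the LLC comparison, red for upregulated and blue for downregulated, with a dotted line at equal values. Most red points lie above 0 on the y axis and most blue points below it, and Npas2 and Per3 lie on the opposite side.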

How the data were processed

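Poly(A) RNA from gastrocnemius was sequenced on a HiSeq2500, and the deposited table holds whole-number read counts per gene, without normalization, and FPKM values that the authors computed from them. The submitters' processing notes name fastp, Bowtie2, HISAT2, StringTie 1.3.1, and the builds mm9 and GRCm38, without saying which count came from which. No step that marks strand is named. FPKM served only to compare levels between genes.

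Counts of the 4 C57BL/6-labelled NOR and CAC libraries were fitted with edgeR 4.0.16 under R 4.3.3 (TMM, quasi-likelihood F test, Benjamini-Hochberg FDR, with filterByExpr at 10 counts per gene and 15 in total). AM vs. CAC and KD vs. CAC were fitted in the same way, and the difference between LLC and CT26 as an interaction on 8 libraries. Groups and columns came from the labels, and 0 columns of no sample were used. Nothing in the labels says which mouse or litter a library came from, so a p-value measures only the spread between these libraries. Paired libraries of a group differed by a chi-square of 71.2 to 433 per degree of freedom, far beyond counting error. With 2 libraries a group, outliers were not looked for.

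The gene lists and comparisons were chosen with earlier results of these data known. Genes named are list members, the 12 DEGs that rose most and the 12 that fell most in log2 terms (with no overlap and 1 CPM or more on average), the 8 that rose most and the 8 that fell most in mean CPM, and the 4 with the smallest p in each direction of the interaction. Ifi202b, Rps2, Cd22, Map3k6, Pdzd7, Col4a5, Col6a6, Col11a2, Dnajb1, Cnppd1, and those opposite in CT26 were named after their values were seen. Alternatives were DESeq2 1.42.0, limma-voom (limma 3.58.1), scaling by total counts, upper quartiles, or RLE, other count filters and fold change limits, the replicate number as a block, fits on 8 or 16 libraries, and each library left out in turn. Scripts were tested on simulated data. Some items are not reported here. Promoter windows are from RefSeq (GRCm38.p6), gene positions from GENCODE (GRCm38), and tables and figures used Python 3.11.15, pandas 2.3.3, and matplotlib 3.10.9.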

Additional observations from a re-analysis of the deposited data

Results flagged for a closer look

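Of the DEGs of the LLC comparison, 8 lay on opposite sides with CT26, with every CT26 CAC library beyond both of its NOR libraries in the other direction. They were 5 of 125 upregulated DEGs, where 26.8% of all genes had both CT26 CAC libraries below both NOR libraries. The other 3 were among 121 downregulated DEGs, where 25.0% of all genes had them above. Such opposite genes were thus rarer than the background. None of the 8 differences passed by edgeR's interaction test. Npas2, a clock gene, was at 10.0 and 7.85 CPM in NOR and 1.80 and 1.21 in CAC with LLC, and at 0.525 and 0.478 in NOR and 3.74 and 3.60 in CAC with CT26, a difference of log2 effects (LLC minus CT26) of -5.49 (edgeR FDR 0.12). Per3, also of the clock, was at 39.4 and 51.3 CPM in the CT26 NOR libraries and 13.3 and 23.1 in CAC, and its difference was 2.96 (FDR 0.231). Both genes thus had unlike levels in the control libraries of the models. Itgav, the integrin alpha-V subunit, was at 35.5 and 34.5 CPM in NOR and 11.6 and 13.6 in CAC with LLC, and at 18.3 and 17.3 in NOR and 23.0 and 25.3 in CAC with CT26 (difference -1.96, FDR 0.186). The others were Enpp4 with a difference of 2.01 (FDR 0.561), Vkorc1l1 with 1.97 (FDR 0.668), Knop1 with 1.69 (FDR 0.199), Tspan4 with 1.64 (FDR 0.202), and Rftn1 with -1.35 (FDR 0.503).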

How the results depend on the processing

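For CAC vs. NOR, the main 125 upregulated and 122 downregulated DEGs became 672 and 834 with DESeq2, 220 and 202 with the replicate block, 0 and 0 in the fit on all 8 libraries labelled C57BL/6, 2 (Cnppd1 and Il6ra) and 8 in the fit on all 16, and 0 and 0 with any library left out. No label says what a shared replicate number means, and for the paired fit same-numbered NOR and CAC libraries deviated from their group means with a correlation across genes of 0.571, over 2 pairs (-0.235 for AM with CAC and -0.536 for KD with CAC). With the numbers of the CAC libraries crossed, an alternative added after the data were seen, AM vs. CAC gave 0 DEGs and KD vs. CAC 2 upregulated and 0 downregulated. AM vs. CAC gave 0 DEGs by edgeR and 536 up and 506 down by DESeq2, and KD vs. CAC 0 by edgeR and 31 up and 16 down by DESeq2, and 0 with each library left out. The interaction gave 0 genes, 129 by DESeq2, 1 (Dnajb1) in the fit on 16 libraries, and 0 to 32 with each library left out, the 32 without CAC-3. RLE, upper-quartile, and total-count scaling, limma-voom, no count filter, a minimum count of 50, and fold change limits of 1 or 2 kept the DEG counts between 93 and 168. Of 117 named genes, 3 that were not DEGs changed sign under 1 of 14 settings each, with log2 fold changes from -1.08 to 1.04 for Socs3, -0.0692 to 0.36 for Aldoa, and -0.63 to 0.0181 for Myh4 with each library left out (without NOR-2 for Socs3 and Aldoa, without NOR-1 for Myh4). Of the 25 named genes that were not DEGs, 18 passed with DESeq2, 14 with the replicate block, and 0 in the fit on 8 libraries or with any library left out. Counts of DEGs with the same direction in CT26 were 107 to 117 upregulated and 112 to 118 downregulated with each CT26 library left out, which was added after the data were seen. No setting varied the depth.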
